A study of Callithrix jacchus with 4 samples.

Results

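Endocannabinoids are lipid messengers that neurons make on demand from membrane phospholipids. At many synapses the postsynaptic cell releases 2-arachidonoylglycerol (2-AG), which travels backwards to the CB1 receptor on the presynaptic terminal and lowers transmitter release. Group I metabotropic glutamate receptors such as mGluR5 drive this release through Gq and phospholipase C, which supply the diacylglycerol that the diacylglycerol lipases turn into 2-AG. In mice, loss of FMRP, the RNA-binding protein made from FMR1 and missing in fragile X syndrome, alters endocannabinoid release driven by mGluR5. Here only RNA levels of the receptor and enzymes were compared, which do not measure that release.

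The genes were chosen by symbol as the CB1 receptor and the main enzymes that make and clear endocannabinoids: CNR1, DAGLA, DAGLB, MGLL, FAAH, NAPEPLD and ABHD6. Of these 7 symbols, 6 had a row in a count table of 35205 genes, and all 6 passed the filter on low counts. No row carried the symbol FAAH, the enzyme that breaks down anandamide, so it was not analysed here. Poly(A) RNA of brain from the common marmoset (Callithrix jacchus), taken at postnatal day 5, had been sequenced. The groups were 2 FMR1 mutant libraries, from animals made with CRISPR/Cas9, and 2 wild-type libraries. The labels give neither the sequence change in FMR1, nor whether the mutant animals were founders, nor sex or litter. They do not say that each library came from its own animal, so p-values measure only the spread between these libraries, which may be technical.

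Total counts were 13153036 and 13455702 in FMR1 mutant replicates 1 and 2, against 13256200 and 12331639 in wild-type replicates 1 and 2. FMR1 itself was counted 1062 and 1603 times in the mutant libraries and 1144 and 966 times in the wild-type libraries, so its RNA did not separate the groups. The tissue is labelled brain, and per the design text the forebrain samples included cortex, striatum and hippocampus. Every library name ends in the letters Cr, which the labels do not explain, so the region behind each library is not known here, and a difference in region between libraries cannot be told apart from one between groups. Markers of excitatory cortical neurons (summed to between 1850 and 2160 CPM, the counts scaled to library size) and of striatal projection neurons (422 to 521 CPM) were present in all 4 libraries. The hindbrain markers EN1 and HOXB5 had 0 counts in each. The thalamic marker TCF7L2 stood at 9.01 and 8.98 CPM in the mutant libraries. It was 96.0 CPM in wild-type replicate 1 against 11.3 CPM in wild-type replicate 2. From the list of thalamic and hindbrain markers, LHX9 (115 counts), GBX2 (62 counts) and SLC17A6 (947 counts) were also highest in wild-type replicate 1. PVALB (80 counts) and EN2 (1 count) were highest in wild-type replicate 2. LHX9, GBX2, SLC17A6 and EN2 were named after their values were seen. In bulk tissue, fewer cells of a type and less RNA per cell cannot be told apart.

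None of the 6 measured genes passed the test across all genes (edgeR's quasi-likelihood test, Benjamini-Hochberg adjusted p under 0.05), and none did by DESeq2 or limma-voom. Of all 16956 genes tested, 378 passed, a share of 2.23%. At an unadjusted p under 0.05, 1 of the 6 genes, ABHD6, was lower in the mutant libraries by each of the 3 tools, beside 7.75% of all genes lower by edgeR. The log2 fold change of mutant over wild type was positive for 2 genes and negative for 4, with a median of -0.08, beside a median of -0.0040 over all genes tested. Without mutant replicate 1 or wild-type replicate 2 the median of the 6 was 0.01 and 0.04, and without mutant replicate 2 or wild-type replicate 1 it was -0.18 and -0.20. The median size of the change, without its sign, was 0.16 for the 6 genes and 0.17 for all genes tested. In 4 of the 6 genes the mutant and wild-type libraries did not overlap in CPM, beside 43.1% of all genes tested, with 2 genes higher (21.4% of all genes) and 2 lower (21.8%). A change of 2-fold in either direction lay outside the 95% interval of each of the 6 genes. These intervals rest on a median of 33.6 degrees of freedom, most of them borrowed by edgeR from other genes. The libraries themselves give only 2, on which the intervals would be wider.

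**Figure D1:**
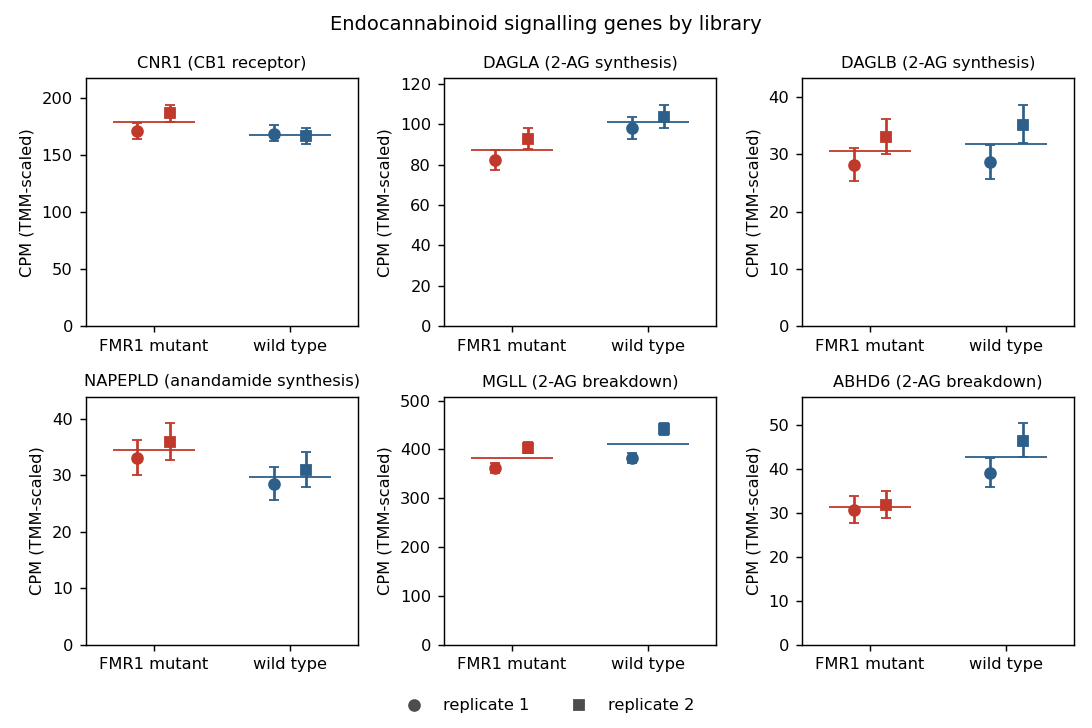
Level of each measured endocannabinoid gene in CPM (vertical axes, from 0) in the 2 FMR1 mutant libraries (red, left) and the 2 wild-type libraries (blue, right), with 95% Poisson counting intervals and group means as lines. ABHD6 and DAGLA lie lower, and NAPEPLD and CNR1 higher, in each mutant library than in either wild-type library; DAGLB and MGLL overlap.

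CNR1 encodes the CB1 receptor, the main cannabinoid receptor of neurons, which couples to Gi and Go proteins. It was counted 2239 and 2511 times in FMR1 mutant replicates 1 and 2, which is 171 and 186 CPM, and 2236 and 2044 times in wild-type replicates 1 and 2, which is 169 and 166 CPM. Both mutant libraries lay above both wild-type libraries, but the 95% counting interval of mutant replicate 1, 164 to 178 CPM, covered the levels of both wild-type libraries. The mean was 179 ± 10.9 CPM in mutant and 168 ± 1.6 CPM in wild-type libraries (SD, n = 2 each). The difference on the log2 scale was 0.09 (SE 0.12, 95% interval -0.14 to 0.33) and did not pass (edgeR adjusted p = 0.804). On the linear scale the interval ran from 0.906-fold to 1.25-fold. Leaving out 1 library at a time gave log2 fold changes from 0.03 without mutant replicate 2 to 0.15 without mutant replicate 1. Their positive sign was largely fixed in advance, because the groups did not overlap.

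Among the genes with a symbol and a mean of at least 5 CPM, those whose log2 CPM followed CNR1 most closely over the 4 libraries were NKD2, AASDH and RNF19B. NKD2 encodes an inhibitor of Wnt signalling that binds Dishevelled, and RNF19B a ubiquitin ligase. Their Euclidean distances from CNR1, after centring each gene on its own mean, were 0.013, 0.016 and 0.016 on the log2 scale. Within a distance of 0.05 lay 73 of the 11643 genes compared. CNR1 itself varied only from 166 to 186 CPM, so any gene this near to it also varied little. A shared function or regulation was not tested.

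DAGLA encodes the diacylglycerol lipase that makes most 2-AG at synapses of the adult mouse brain. It was counted 1076 and 1249 times in the mutant libraries, which is 82.1 and 92.7 CPM, and 1300 and 1274 times in the wild-type libraries, which is 98.1 and 104 CPM. The groups did not overlap, with both mutant libraries below both wild-type libraries. Yet the 95% counting interval of mutant replicate 2, 87.6 to 98.0 CPM, overlapped that of wild-type replicate 1, 92.8 to 104 CPM. DAGLA differed by -0.21 on the log2 scale (SE 0.12, 95% interval -0.46 to 0.04) and did not pass (edgeR adjusted p = 0.493, unadjusted p = 0.104). With 1 library left out the difference ran from -0.29 without mutant replicate 2 to -0.12 without mutant replicate 1. Its sign was largely fixed in advance, because the groups did not overlap.

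DAGLB encodes the second diacylglycerol lipase, which in mice is prominent in microglia and macrophages. It was counted 368 and 445 times in the mutant libraries, which is 28.1 and 33.0 CPM, and 379 and 432 times in the wild-type libraries, which is 28.6 and 35.2 CPM. The groups overlapped, and in each group replicate 1 was lower than replicate 2 by more than the difference between the group means of 30.6 and 31.9 CPM. The log2 fold change was -0.06 (SE 0.16, 95% interval -0.38 to 0.26, edgeR adjusted p = 0.928). It was positive without mutant replicate 1 (0.05) or without wild-type replicate 2 (0.10), so it has no settled sign.

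NAPEPLD encodes the phospholipase D that releases anandamide and related N-acylethanolamines from their phospholipid precursors. It was counted 433 and 483 times in the mutant libraries, which is 33.1 and 35.8 CPM, and 376 and 380 times in the wild-type libraries, which is 28.4 and 30.9 CPM. Both mutant libraries were above both wild-type libraries, yet the counting interval of mutant replicate 1, 30.0 to 36.3 CPM, covered wild-type replicate 2. The mean was 34.4 ± 1.97 CPM in mutant and 29.7 ± 1.82 CPM in wild-type libraries (SD, n = 2 each). The difference missed the threshold, at a log2 fold change of 0.22 (SE 0.15, 95% interval -0.09 to 0.52, edgeR adjusted p = 0.584).

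MGLL encodes monoacylglycerol lipase, which carries out most 2-AG hydrolysis in the rodent brain. It was counted 4749 and 5439 times in the mutant libraries, which is 363 and 404 CPM, and 5068 and 5420 times in the wild-type libraries, which is 382 and 441 CPM. The groups overlapped, because mutant replicate 2 lay above wild-type replicate 1. MGLL differed by -0.10 on the log2 scale (SE 0.12, 95% interval -0.34 to 0.13, edgeR adjusted p = 0.768). Without wild-type replicate 2, the library with the highest level, it was 0.0047, and without mutant replicate 1 it was -0.03. Without wild-type replicate 1 it was -0.20, and without mutant replicate 2 it was -0.18. With between 4749 and 5439 counts per library, counting error was at most 1.45% of the count, so the spread between replicates of a group was larger than counting error.

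ABHD6 encodes a serine hydrolase that also breaks down 2-AG, at postsynaptic sites in mouse neurons, and it had the largest difference of the 6 genes. It was counted 403 and 430 times in the mutant libraries, which is 30.8 and 31.9 CPM, and 519 and 571 times in the wild-type libraries, which is 39.2 and 46.5 CPM. Both mutant libraries lay below both wild-type libraries, and their counting intervals (27.8 to 33.9 and 29.0 to 35.1 CPM) did not reach those of the wild-type libraries (35.9 to 42.7 and 42.8 to 50.5 CPM). The mean was 31.3 ± 0.806 CPM in mutant and 42.8 ± 5.19 CPM in wild-type libraries (SD, n = 2 each). The log2 fold change was -0.45 (SE 0.15, 95% interval -0.75 to -0.15), or 0.732-fold on the linear scale. Its unadjusted p of 0.0042 became an adjusted p of 0.110 over all genes tested (edgeR), which misses the threshold. Under the 12 alternatives tried the adjusted p ran from 0.0772 to 0.483. The change was -0.57 without wild-type replicate 1 and -0.32 without wild-type replicate 2 (unadjusted p = 0.0885 by edgeR).

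**Figure D2:**
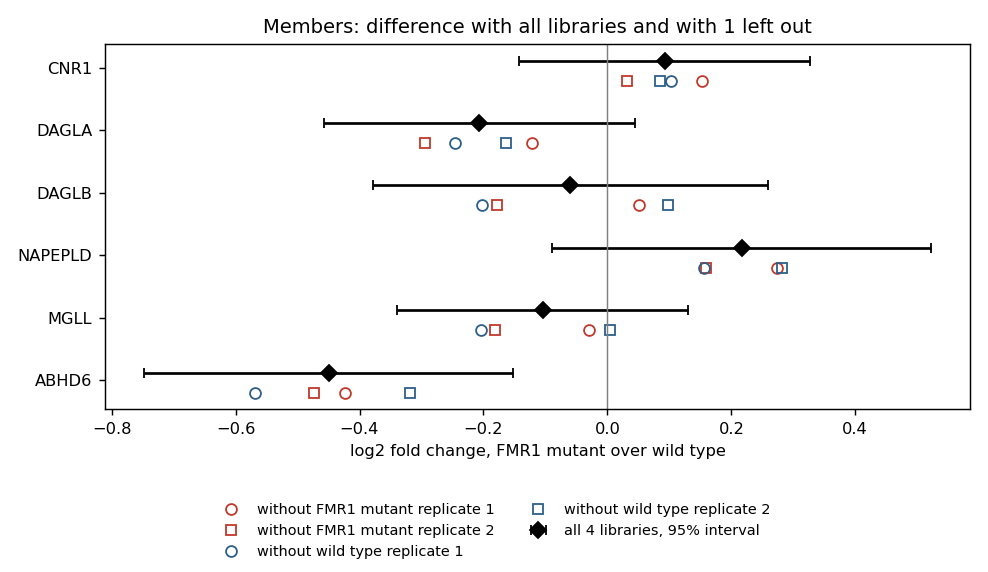
Log2 fold change of FMR1 mutant over wild type (horizontal axis) for each measured gene with all 4 libraries (black diamonds, 95% interval) and with 1 library left out (open symbols, red for a mutant and blue for a wild-type library). ABHD6 and DAGLA are negative and CNR1 and NAPEPLD positive in all 4 fits with 1 library left out, whereas DAGLB and MGLL cross 0. For ABHD6, DAGLA, CNR1 and NAPEPLD the groups do not overlap in CPM, which largely fixes the sign of these fits.

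Ratios of counts between 2 genes within a library need no scaling factor, and gene length cancels when such a ratio is compared between groups. With 2 libraries against 2, the exact two-sided permutation test cannot give a p below 0.33, and each of the 3 ratios computed gave that value. The MGLL to ABHD6 ratio, between the 2 enzymes that hydrolyse 2-AG, was 11.8 and 12.6 in the mutant libraries and 9.76 and 9.49 in the wild-type libraries. The groups did not overlap, and the mean ratio was 12.2 ± 0.611 in mutant and 9.63 ± 0.193 in wild-type libraries (SD, n = 2 each), a 1.27-fold difference. With 1 library left out the log2 differences were 0.29 to 0.39, but the lack of overlap fixed their side in advance. The ratio uses the same ABHD6 counts as above, so it is not a separate result.

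The DAGLA to DAGLB ratio was 2.92 and 2.81 in the mutant libraries and 3.43 and 2.95 in the wild-type libraries. Mutant replicate 1 and wild-type replicate 2 almost met, and without wild-type replicate 1 the log2 difference shrank to -0.04 from -0.15. The DAGLA to MGLL ratio, of a 2-AG making to a 2-AG clearing enzyme, was 0.227 and 0.230 in the mutant libraries and 0.257 and 0.235 in the wild-type libraries. Its log2 difference of -0.11 also rested mostly on wild-type replicate 1, being -0.04 without it. No ratio with FAAH could be formed.

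**Figure D3:**
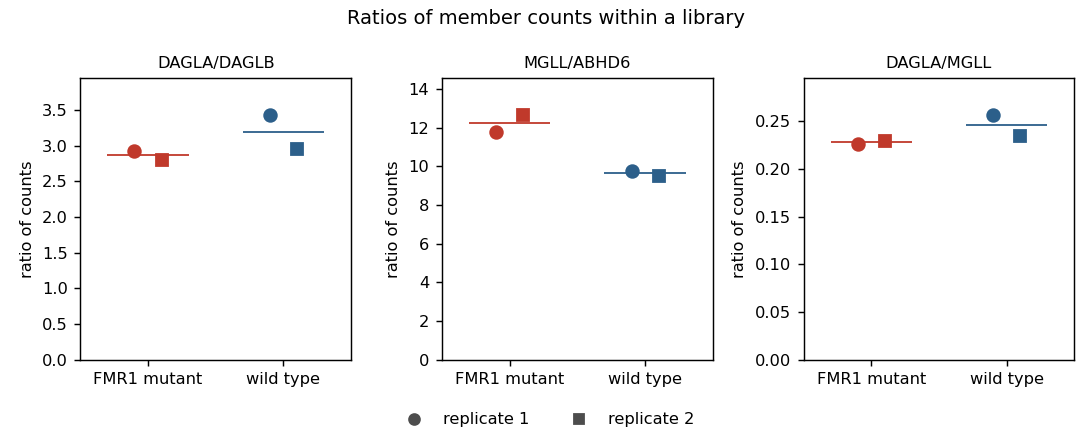
Ratio of counts between 2 endocannabinoid genes within each library (vertical axes, from 0; FMR1 mutant libraries red and left, wild-type libraries blue and right; lines are group means). The MGLL to ABHD6 ratio is 11.8 and 12.6 in mutant libraries, above 9.76 and 9.49 in wild-type libraries, while DAGLA to DAGLB and DAGLA to MGLL lie closer together.

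The other genes of the pathway were read from 4 lists holding 46 genes, of which 41 were tested. Of these, 20 had a positive and 21 a negative log2 fold change (median -0.0084), 0 rose and 1 fell at an adjusted p under 0.05 by edgeR, a share close to the 2.23% of all genes tested that passed. The gene that fell was GRK3, a kinase that phosphorylates activated G protein-coupled receptors, CB1 among them, for desensitisation by arrestin. It was counted 1708 and 2018 times in the mutant libraries, which is 130 and 150 CPM, and 2707 and 2354 times in the wild-type libraries, which is 204 and 192 CPM. Its log2 fold change was -0.50 (SE 0.12, edgeR adjusted p = 0.0155), and it also passed by DESeq2 (adjusted p = 0.0109) and limma-voom (adjusted p = 0.0224). It did not pass by edgeR without mutant replicate 1 (adjusted p = 0.193) or without wild-type replicate 1 (adjusted p = 0.107).

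Of the 15 genes for CB1 effectors and desensitisation, 14 did not pass, and the list's median log2 fold change was 0.05 (0.0060 without wild-type replicate 2 and 0.0095 without mutant replicate 2). GNAI3, an inhibitory G protein alpha subunit, was 121 and 115 CPM in the mutant libraries and 103 and 92.4 CPM in the wild-type libraries (log2 fold change 0.28, edgeR adjusted p = 0.289). The paralogous kinase GRK2, chosen after its values were seen, was 240 and 223 CPM in mutant and 236 and 236 CPM in wild-type libraries, with a log2 fold change of -0.03 beside that of GRK3.

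Along the route by which group I metabotropic receptors make diacylglycerol, 0 of 12 genes passed by edgeR (2 at an unadjusted p under 0.05), and also 0 by DESeq2 and limma-voom. At that unadjusted level 7.75% of all genes tested were lower by edgeR, and the share in either direction is not given here. Counts at an unadjusted p, here and in the lists below, are therefore not read as results about a list. Of these 12 genes, 6 had a positive and 6 a negative log2 fold change, with a median of -0.03 (-0.07 without mutant replicate 2 and -0.0072 without wild-type replicate 2). GRM5, which encodes mGluR5, was counted 2688 and 3112 times in the mutant libraries (205 and 231 CPM) and 3048 and 2874 times in the wild-type libraries (230 and 234 CPM). Mutant replicate 2 lay within the wild-type range and mutant replicate 1 below it. Its log2 fold change was -0.09 (SE 0.12, 95% interval -0.32 to 0.15, edgeR adjusted p = 0.812). Leaving out mutant replicate 1 gave -0.0065, and leaving out mutant replicate 2 gave -0.17.

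PLCB4, a phospholipase C coupled to Gq, was 20.1 and 19.5 CPM in the mutant libraries and 32.7 and 23.4 CPM in the wild-type libraries (log2 fold change -0.51, edgeR adjusted p = 0.131). Of the wild-type libraries, replicate 1, which also had the high TCF7L2, lay further above the mutant libraries than replicate 2. Without wild-type replicate 1 the log2 fold change of PLCB4 was -0.24, and without wild-type replicate 2 it was -0.72. A link between PLCB4 and TCF7L2 was not tested. CAMK2A, the kinase subunit that phosphorylates DAGL-alpha in mice and a gene named after its values were seen, was 269 and 350 CPM in the mutant libraries and 336 and 542 CPM in the wild-type libraries. The groups overlapped, and its log2 fold change of -0.50 was uncertain (SE 0.30, edgeR adjusted p = 0.613). Its call turned on the fit, with an adjusted p of 2.90e-05 without wild-type replicate 1 and 0.848 without wild-type replicate 2.

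Among 11 other enzymes of endocannabinoid and N-acylethanolamine metabolism, 8 were tested and 0 passed by edgeR, DESeq2 or limma-voom (2 at an unadjusted p under 0.05 by edgeR). Of the 8, 1 had a positive and 7 a negative log2 fold change, with a median of -0.27. That median was -0.14 without mutant replicate 2, -0.16 without wild-type replicate 1 and -0.45 without a low-count filter. PLAAT3, a phospholipase and acyltransferase, was 13.4 and 13.2 CPM in the mutant libraries and 18.6 and 18.9 CPM in the wild-type libraries (log2 fold change -0.50, unadjusted p = 0.0108, adjusted p = 0.179 by edgeR). NAAA, a lysosomal hydrolase of N-acylethanolamines, was counted 26 and 52 times in the mutant libraries and 70 and 56 times in the wild-type libraries (log2 fold change -0.75, edgeR adjusted p = 0.324). Leaving out mutant replicate 1 gave -0.35, and leaving out mutant replicate 2 gave -1.30 (unadjusted p = 0.0091, adjusted p = 0.191 by edgeR). FAAH2, a second amide hydrolase, had 0 counts in each library, which allows up to 0.244 CPM in the shallowest of them.

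Among 8 genes for carriers, partners of CB1 and other lipid receptors, 6 were tested and 0 passed by edgeR, DESeq2 or limma-voom (0 at an unadjusted p under 0.05 by edgeR), with 5 positive and 1 negative log2 fold changes (median 0.12, from 0.06 without mutant replicate 1 to 0.22 without mutant replicate 2). FABP5, a fatty acid binding protein that carries endocannabinoids inside cells, was 58.6 and 54.1 CPM in the mutant libraries and 52.3 and 46.2 CPM in the wild-type libraries (log2 fold change 0.19, edgeR adjusted p = 0.591). CNRIP1, which binds the tail of CB1, was 294 and 274 CPM in the mutant libraries and 263 and 252 CPM in the wild-type libraries (log2 fold change 0.14, edgeR adjusted p = 0.654). CNR2, the gene of the CB2 receptor of immune cells, had 0 counts in each library.

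**Figure D4:**
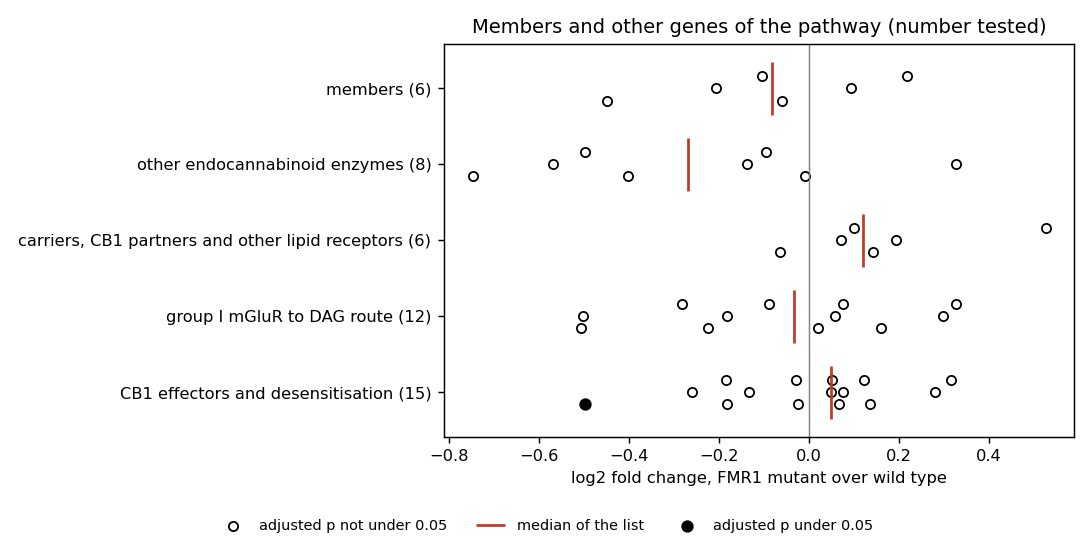
Log2 fold change of FMR1 mutant over wild type (horizontal axis) for the measured endocannabinoid genes and for 4 lists of other pathway genes; each circle is a gene, the red line the list's median and the filled circle the gene past an adjusted p of 0.05. GRK3 at -0.50 is the filled circle, and list medians lie between -0.27 and 0.12.

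Several of these genes are expressed by glia as well as neurons, and glial markers differed between the groups. All 8 markers of mature oligodendrocytes fell (median log2 fold change -1.39), summing to 1357 and 1306 CPM in the mutant libraries and 3563 and 3491 CPM in the wild-type libraries. Of 8 astrocyte markers 2 fell (median -0.35), summing to 4407 and 4701 CPM in mutant and 5968 and 6036 CPM in wild-type libraries. Of 7 genes listed as precursor markers of the oligodendrocyte lineage 2 fell, GPR17 and SOX10 (list median -0.30, 511 and 528 against 634 and 665 CPM). PDGFRA, CSPG4, OLIG1, OLIG2 and VCAN did not pass, with log2 fold changes of -0.44 for PDGFRA, -0.13 for CSPG4 and 0.14 for VCAN. Of 8 microglial markers 3 fell (median -0.57, 129 and 87.5 against 164 and 173 CPM). Of 7 markers of endothelium and pericytes, 0 passed by edgeR, DESeq2 or limma-voom (2 at an unadjusted p under 0.05 by edgeR), with a median of -0.21. With 1 library left out, 8 oligodendrocyte markers and 2 or 3 astrocyte markers passed in each fit, whereas 0 precursor markers passed without wild-type replicate 2 (median -0.08), 1 without mutant replicate 1, and 0 microglial markers passed without mutant replicate 2 (median -0.32), each by edgeR. Among the pathway genes named here, each mutant library lay below both wild-type libraries for GRK3, ABHD6, DAGLA, PLAAT3, NAAA and PLCB4. In the other direction, each lay above both for CNR1, NAPEPLD, GNAI3, FABP5 and CNRIP1. GRK3, PLAAT3, NAAA, PLCB4, GNAI3, FABP5 and CNRIP1 were named for a small p within their lists. Their lack of overlap was largely fixed by that choice, so it is not compared with the share among all genes. Genes of these lists that are not named here, such as GDPD1 (lower) and ABHD4 (higher), also separated. The part of cell composition in the values of the pathway genes was not tested.

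Of 7 pan-neuronal markers tested 2 fell, the neurofilaments NEFL and NEFM, with a list median of -0.08 and sums of 6218 and 6039 CPM in mutant and 6263 and 5845 CPM in wild-type libraries. Neither neurofilament passed without mutant replicate 1 or without wild-type replicate 1, and 1 of the pair passed without mutant replicate 2. The list's median was -0.17 without mutant replicate 1 and -0.19 without wild-type replicate 1. Of 7 markers tested of the interneurons that express cholecystokinin, which in rodents are rich in CB1, 0 passed by edgeR, DESeq2 or limma-voom (0 at an unadjusted p under 0.05 by edgeR). Their median was -0.07 (-0.18 without wild-type replicate 2 and -0.0084 without mutant replicate 1), and CCK itself was 123 and 104 CPM in mutant and 123 and 132 CPM in wild-type libraries. None of 8 striatal projection neuron markers passed by edgeR, DESeq2 or limma-voom (2 at an unadjusted p under 0.05 by edgeR, median 0.06; 1 passed without wild-type replicate 1). That median was -0.22 without mutant replicate 2 and -0.02 without wild-type replicate 2. Of 8 cortical and hippocampal excitatory markers 1 rose, NEUROD6 (list median 0.13), but it did not pass by limma-voom or with any 1 library left out. Of 4 genes tested from the thalamic and hindbrain list 1 fell, PVALB, at 2.37 and 1.63 CPM in mutant and 5.05 and 6.51 CPM in wild-type libraries. Unlike TCF7L2, PVALB was not higher in wild-type replicate 1 than in wild-type replicate 2. It did not pass by DESeq2 or without mutant replicate 2. The list's median of -1.86 was 0.11 without wild-type replicate 1. The only blood marker tested, ALAS2, did not pass.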

How the data were processed

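The authors deposited a table of raw counts per gene, with no normalization, for 4 libraries. Per the labels' protocols, libraries were made from poly(A) RNA with a directional kit. Per the submitters' processing notes, Trimmomatic 0.38 and STAR 2.7.10a were used. The counting tool, strand setting, annotation and genome build were not given in the sources used here, so no coordinates are given, and overlapping or antisense genes could share counts. Columns were matched to libraries by the names in the labels. Counts were filtered with filterByExpr (minimum count 10; 16956 genes kept), scaled by TMM and compared with the quasi-likelihood test of edgeR 4.0.16 in R 4.3.3 (robust = TRUE, 2 residual degrees of freedom, biological coefficient of variation 11.3%). P-values were adjusted by Benjamini-Hochberg over all genes tested, and every adjusted p without another tool's name is from this test. SE is the size of the log2 fold change divided by the square root of F. Poisson intervals and the limit that 0 counts allow (3 counts) cover counting error only. Replicates differed by more than sampling noise (chi-square per degree of freedom 6.90 between mutant and 7.28 between wild-type libraries). The test was tried on simulated counts with known changes.

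The 7 genes, the 15 other lists and the tests were chosen with earlier results of these data known. All 7 genes and GRM5 were to be named, and per list up to 4 genes past the threshold, or, where fewer than 2 passed, the 2 with the smallest unadjusted p. Marker lists are given mainly by counts. A gene that the rule takes is not reported here by name, though it stays in all tests and counts. The 3 genes nearest to CNR1 were taken by Euclidean distance of centred log2 CPM. Alternatives were RLE and upper quartile scaling, a mean of at least 1 CPM or no filter in place of filterByExpr, DESeq2 1.42.0, limma-voom (limma 3.58.1), robust = FALSE, the replicate number as a block, and each library left out in turn on the same genes. With 1 library left in a group, that library is assumed to vary like the others.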

Additional observations from a re-analysis of the deposited data

How the results depend on the processing

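None of the 6 genes passed under any of the 12 alternatives, of which DESeq2 and limma-voom were each run once on all 4 libraries and the others with edgeR. CNR1, DAGLA, NAPEPLD and ABHD6 kept their sign in all 12. The groups of these genes did not overlap in CPM, so their sign with 1 library left out was largely fixed in advance. With 1 library left out, DAGLB ran from -0.20 to 0.10 (0.05 without mutant replicate 1) and MGLL from -0.20 to 0.0047. ABHD6 missed an unadjusted p of 0.05 by edgeR only without wild-type replicate 2. The number of genes changed over the whole table, 378, was 633 without a low-count filter and 251 by DESeq2, and it was 163 without mutant replicate 1, 220 without mutant replicate 2, 355 without wild-type replicate 1 and 562 without wild-type replicate 2. Of the other pathway genes, 1 passed; 2 did without a low-count filter and 2 with the replicate block, CAMK2A being the second each time. Between 0 and 2 passed with 1 library left out, where ARRB1 ran from -0.67 without mutant replicate 2 (adjusted p = 0.0369 by edgeR) to 0.057 without mutant replicate 1. The cause of these shifts was not tested. Across genes, the replicate differences of the 2 groups were nearly uncorrelated (r = 0.03). A single correlation over all genes cannot show that replicate numbers shared no litter or batch. With the replicate number as a block, 493 genes changed and ABHD6 was at -0.45 (adjusted p = 0.114). The 95% intervals of CNR1, DAGLA, DAGLB, MGLL and NAPEPLD, each from 2 libraries a group, cover 0.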
